A study of Homo sapiens with 6 samples.

Results

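The 9 genes described here make the small non-coding RNAs 7SK, 7SL, Y, vault, RNase P and RNase MRP: RN7SK, RN7SL1, RN7SL2, RPPH1, RMRP, RNY1, RNY3, RNY4 and VTRNA1-1. They were taken by name from a gene count table of 61853 entries, through the Ensembl identifier of each entry, and all 9 were found. Where a symbol was listed more than once, the entry with the most reads was used. The table came from total RNA sequencing of H9, a long-established line of human embryonic stem cells, before and after their differentiation in culture into neurons of the arcuate nucleus, a hypothalamic centre that controls feeding. There were 3 libraries from day 30 and 3 from day 0.

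Day 30 cells had been grown with SB431542, LDN-193189, purmorphamine and sonic hedgehog, then with B-27 and DAPT, replated with a ROCK inhibitor, and kept in B-27 and BDNF, per the labels' protocols. Day 0 cells were the same H9 line at the start, with no genetic change named for either day. Both days rest on this cell line alone, and the labels do not tell whether each replicate was its own culture. The p-values therefore describe only how these samples spread, which may be technical. The libraries summed to 9688839, 12924842 and 5013643 counts for day 30, against 7758817, 7178453 and 8794008 for day 0.

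The labels were checked against marker genes. The summed level of 7 pan-neuronal markers was 5421 to 6804 CPM (read counts divided by the TMM-scaled library size and multiplied by 1000000) on day 30 and 157 to 190 CPM on day 0. For 7 arcuate markers the sums were 2950 to 4722 CPM on day 30, against 1.35 to 2.28 CPM on day 0, and for 7 pluripotency markers 10.2 to 12.8 CPM on day 30, against 4022 to 4732 CPM on day 0. SST alone gave 2068, 2642 and 1523 CPM of the day 30 arcuate sums. POMC averaged 1516 CPM on day 30, NKX2-1 51.4 and TBX3 15.9. Astroglia, oligodendroglia and endothelial markers summed to at most 11.8, 33.4 and 6.76 CPM on day 30, against at least 41.4, 120 and 192 CPM on day 0. The oligodendroglia marker MOG was listed at 0 in every library, and whether that reflects the gene or its entry was not tested. Of the 5 mesenchymal markers 3 of 4 tested rose, where 39.8% of all genes tested rose, and the days overlapped for each of these 3. TWIST1 had too few reads to be tested, with 6 on day 30 and 74 on day 0. The sum of the 5 mesenchymal markers was 4338 CPM in day 30 replicate 3, against 171 and 629 CPM in the other day 30 libraries and 224 to 333 CPM on day 0. That library was also the shallowest and had the lowest neuronal and arcuate sums.

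Most of these RNAs are made by RNA polymerase III and work inside a ribonucleoprotein. 7SK RNA holds the kinase P-TEFb inactive and so restrains elongation by RNA polymerase II. 7SL RNA is the scaffold of the signal recognition particle (SRP), which brings ribosomes that make secreted and membrane proteins to the endoplasmic reticulum. RPPH1 is the catalytic RNA of RNase P, which trims the 5′ end of tRNA precursors, and RMRP is the RNA of RNase MRP, which cuts the ribosomal RNA precursor. Y RNAs bind the protein Ro60, and vault RNAs sit in vault particles.

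The members split by length. The 5 members of 264 to 333 nucleotides (7SL, 7SK, RPPH1 and RMRP) each held at least 5404 reads in every library, whereas the 4 members of 96 to 113 nucleotides (Y and vault RNAs) held at most 54. The part of length in this gap was not tested. Per kilobase of transcript, the order of levels on day 30 was RN7SL1 at 108707 ± 23439 CPM per kilobase, RN7SL2 at 79336 ± 19967, RN7SK at 37833 ± 3498, RPPH1 at 15541 ± 1083 and RMRP at 3760 ± 91.0 (SD, n = 3). On day 0 it was RN7SL1 at 129713 ± 10665 CPM per kilobase, RN7SL2 at 63351 ± 4374, RN7SK at 16951 ± 1883, RMRP at 11633 ± 2401 and RPPH1 at 9974 ± 200 (SD, n = 3). RMRP stood below RPPH1 on day 30, and on day 0 the libraries of these neighbours overlapped. RN7SL1 and RN7SL2 also overlapped between day 30 libraries, though RN7SL1 was the higher of the pair in each library. RN7SL2, RN7SK, RPPH1 and RMRP each had a second entry with the same or almost the same values, as given below. If reads were divided between such entries, their levels here are too low and their order against RN7SL1 may differ. RNY1 followed far below, at 12.4 ± 6.72 CPM per kilobase on day 30 and 45.1 ± 11.9 on day 0.

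**Figure D1:**
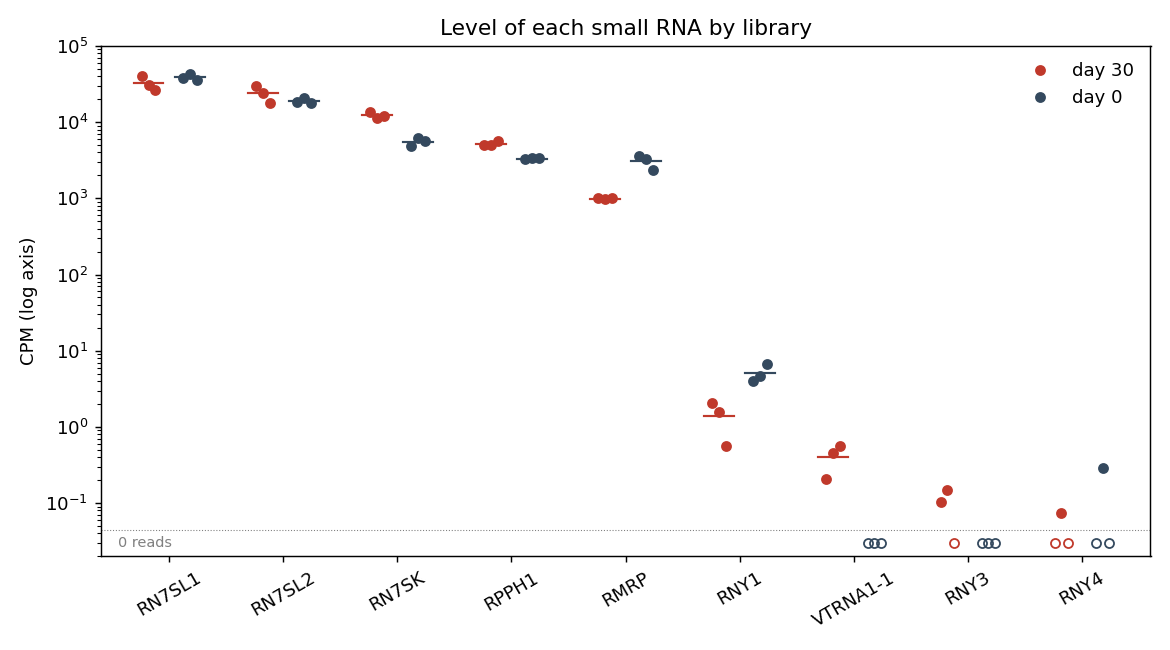
Level of each small RNA in CPM on a log axis, with a point for each library, a line at the mean of 3 libraries where all hold reads, and open circles for libraries with 0 reads. RN7SK and RPPH1 lie higher on day 30, RMRP and RNY1 lie lower, and the RN7SL1 and RN7SL2 libraries of both days overlap.

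Of the 6 members with enough reads to be tested, 4 passed, at an adjusted p (Benjamini-Hochberg) below 0.05 in edgeR's quasi-likelihood fit over all genes. RN7SK and RPPH1 rose, and RMRP and RNY1 fell. RNY1 met the filter on low counts only through its day 0 libraries, where it is high, and its call was lost with its pseudogene entries added (log2 −0.61, edgeR adjusted p = 0.0542). Among all 18040 genes tested 76.6% passed, 39.8% higher and 36.8% lower on day 30, so a count of 4 in 6 is near the background. The values are relative to the other RNA of a library. In these bulk cultures fewer cells of a type and less RNA per cell cannot be told apart.

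**Figure D2:**
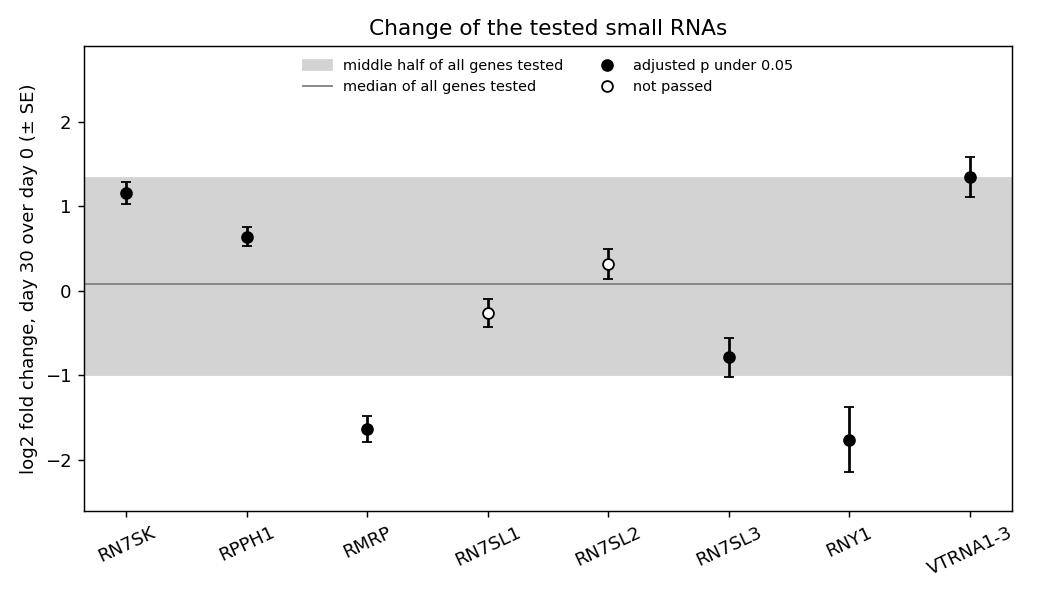
Log2 fold change of day 30 over day 0 with its standard error for the 6 tested members, RN7SL3 and VTRNA1-3, on edgeR's scale. Filled points passed an adjusted p of 0.05, and the grey band and line give the quartiles (−0.99 and 1.33) and the median (0.081) of all 18040 genes tested.

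7SK RNA rose. RN7SK (ENSG00000283293.1, chromosome 6, 52995621 to 52995948, plus strand, hg38, annotated as a snRNA gene) had 13641, 11371 and 12216 CPM on day 30, against 4930, 6165 and 5585 CPM on day 0. Every day 30 library lay above every day 0 library. The log2 fold change was 1.16 ± 0.13 (SE), a 2.23-fold rise (edgeR adjusted p = 1.5e-05). The 293 other entries named RN7SK held 0.481% of the family's reads, and the family sum gave the same log2 fold change of 1.16. A second entry at this place, named 7SK, held identical values in all 6 libraries. Whether these reads were counted under both entries or divided between them is not given in the sources.

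The sequence of RN7SK in GENCODE 29 is shown because this RNA had the largest rise among the tested members. The first 300 of its 328 bases are given. Capitals mark GATC, a motif of the 5′ hairpin, the part of 7SK that the inhibitor HEXIM1 binds. It occurs 3 times, and 10.2% of 4687 GENCODE transcripts of 300 to 356 nucleotides hold it as often (GATC reads the same on both strands).
RN7SK: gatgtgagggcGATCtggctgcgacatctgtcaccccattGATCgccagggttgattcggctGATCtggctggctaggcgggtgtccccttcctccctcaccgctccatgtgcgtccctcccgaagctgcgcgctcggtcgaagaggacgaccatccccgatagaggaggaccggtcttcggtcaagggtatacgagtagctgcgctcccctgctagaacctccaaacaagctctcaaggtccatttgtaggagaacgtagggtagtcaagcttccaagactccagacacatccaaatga

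The mRNAs of the proteins that work with 7SK moved in both directions. In the list of 7SK and P-TEFb proteins, 1 of 7 tested genes rose and 3 fell, with a median log2 fold change of −0.32 beside 0.081 over all genes. Among all genes tested 39.8% rose and 36.8% fell. MEPCE, the enzyme that caps the 5′ end of 7SK, was at 9.65 ± 0.872 CPM on day 30, against 19.8 ± 2.24 CPM on day 0 (SD, n = 3), a log2 fold change of −1.02 ± 0.16 (edgeR adjusted p = 0.000188). LARP7, which binds the 3′ end of 7SK and keeps it stable, was at 29.1 ± 1.80 CPM on day 30, against 39.5 ± 1.14 CPM on day 0 (log2 fold change −0.43 ± 0.12, edgeR adjusted p = 0.00584). LARP7 overlaps the entries ZGRF1 and MIR302CHG, and MEPCE the entry ZCWPW1, so their reads are less certain. Among genes named below, the same holds for SRPRB (RAB6B), SRPRA (FAM118B and FOXRED1), SEC61A2 (NUDT5) and SNAPC3 (PSIP1). It also holds for RPP25 (SCAMP5), RPP38 (NMT2), RO60 (UCHL5), SRSF2 (MFSD11), and for RPP14, ELAC1, SNAPC1, BRF2 and MVP. HEXIM1 averaged 23.4 ± 1.79 CPM on day 30, against 23.2 ± 3.25 CPM on day 0, and the P-TEFb kinase CDK9 averaged 34.8 ± 1.48 CPM on day 30, against 35.2 ± 0.870 CPM on day 0 (SD, n = 3). Neither passed (edgeR adjusted p = 0.979 for HEXIM1 and 0.907 for CDK9), and the sign of both turned with the setting. The cyclin partners of CDK9 differed in direction, as CCNT2 rose by a log2 value of 0.30 and CCNT1 fell by 0.32. The CCNT1 call was lost with total counts only (edgeR adjusted p = 0.0687) and without day 0 replicate 3 or any of the 3 day 30 replicates. The CCNT2 call was lost without day 0 replicate 1 (0.0532) or 2 (0.0692).

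The RNAs of RNase P and RNase MRP moved in opposite directions. RPPH1 (ENSG00000277209.1, chromosome 14, 20343075 to 20343407, minus strand, annotated as a ribozyme gene) had 4935, 5000 and 5590 CPM on day 30, against 3247, 3376 and 3340 CPM on day 0 (log2 fold change 0.64 ± 0.11, edgeR adjusted p = 0.000347). RMRP (ENSG00000277027.1, chromosome 9, 35657754 to 35658017, minus strand, a ribozyme gene) had 995, 967 and 1015 CPM on day 30, against 3558, 3302 and 2354 CPM on day 0 (log2 fold change −1.63 ± 0.16, edgeR adjusted p = 3.44e-06). The days did not overlap for either RNA. Day 0 replicate 3 was the lowest of its group for RMRP, and the day 30 libraries lay close together. Each of these RNAs had a further entry with identical values in all 6 libraries (ENSG00000259001 over RPPH1, and a lincRNA entry also named RMRP).

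The ratio of RMRP to RPPH1 reads does not depend on how libraries are scaled. It was 0.202, 0.193 and 0.182 on day 30, against 1.10, 0.978 and 0.705 on day 0. Relative to RPPH1, RMRP was 4.74-fold lower on day 30, a difference of −2.25 in mean log2 ratio (exact permutation test, 2-sided, p = 0.1, the lowest that 3 libraries a day can give; 0.12 adjusted over the 6 measures tested in this way). The sequences are shown because these RNAs differ in direction while their particles share most proteins. Capitals mark the longest run they have in common, 9 bases, and the first 300 of the 333 bases of RPPH1 are given.
RMRP: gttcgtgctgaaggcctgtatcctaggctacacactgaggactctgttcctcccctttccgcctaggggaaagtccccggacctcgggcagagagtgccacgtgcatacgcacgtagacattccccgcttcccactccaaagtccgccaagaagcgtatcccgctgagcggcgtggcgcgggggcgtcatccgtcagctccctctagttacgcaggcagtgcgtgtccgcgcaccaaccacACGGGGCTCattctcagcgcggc
RPPH1: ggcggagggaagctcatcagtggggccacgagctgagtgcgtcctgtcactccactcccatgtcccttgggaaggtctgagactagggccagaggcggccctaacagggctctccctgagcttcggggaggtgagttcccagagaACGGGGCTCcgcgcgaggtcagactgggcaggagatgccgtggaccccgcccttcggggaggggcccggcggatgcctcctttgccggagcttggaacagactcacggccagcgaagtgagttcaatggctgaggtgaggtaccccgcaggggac

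Of 10 tested RNase P and RNase MRP protein genes 9 fell and none rose, where 36.8% of all genes tested fell. The count was 8 with total counts only and with DESeq2, and 8 to 9 with each library left out. POP4 passed narrowly (edgeR adjusted p = 0.0486). The list's median log2 fold change was −1.14, beside 0.081 over all genes. RPP40, a subunit of the complex, was at 2.30 ± 1.13 CPM on day 30, against 9.24 ± 0.366 CPM on day 0 (SD, n = 3), a log2 fold change of −1.96 ± 0.31 (edgeR adjusted p = 0.000159). POP1, the large scaffold subunit, fell by 0.67, RPP38, which binds kink-turns in the RNA, by 0.84 and RPP25 by 0.83 on the log2 scale. RPP14 was the tested gene that did not pass, at 0.14, and RPP21 was listed at 0 in every library. Whether that 0 reflects the gene or its entry was not tested. Of 6 enzymes that act on tRNA ends or form the protein-based mitochondrial RNase P, 5 fell and 1 rose. Among all genes tested 36.8% fell and 39.8% rose. ELAC2, the endonuclease that trims tRNA 3′ ends, fell by 1.39 on the log2 scale, and ELAC1 rose to 7.15 ± 0.966 CPM on day 30, against 3.17 ± 0.583 CPM on day 0 (log2 fold change 1.14, edgeR adjusted p = 0.00163).

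7SL RNA had the highest level per kilobase on both days, and its total did not pass the test. RN7SL1 (ENSG00000276168.1, chromosome 14, 49586580 to 49586878, plus strand, within the span of RPS29 on the other strand) had 40101, 31119 and 26291 CPM on day 30, against 37791, 42351 and 36210 CPM on day 0 (log2 fold change −0.25 ± 0.17, edgeR adjusted p = 0.182). RN7SL2 (ENSG00000274012.1, chromosome 14, 49862550 to 49862849, minus strand) had 29770, 23843 and 17790 CPM on day 30, against 18571, 20480 and 17965 CPM on day 0 (log2 fold change 0.32 ± 0.18, edgeR adjusted p = 0.118). The days overlapped for both copies. RN7SL2 passed with total counts only (log2 0.41, edgeR adjusted p = 0.0364), with no filter on low counts (0.33, adjusted p = 0.0221) and without day 30 replicate 3 (0.52, adjusted p = 0.0072), and RN7SL1 passed without day 30 replicate 1 (−0.45, adjusted p = 0.0364).

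With all entries named RN7SL summed, 7SL stood at 74197, 58221 and 46174 CPM on day 30, against 61402, 68798 and 59823 CPM on day 0. The log2 value was −0.088 ± 0.17, with an approximate 95% interval of −0.57 to 0.39 (edgeR adjusted p = 0.652). Day 30 replicate 3 was the lowest library and replicate 1 the highest of the 6. Replicate 3 was also the library with the high mesenchymal sum and the lowest total count. The part of these in its 7SL level was not tested. The 677 other RN7SL entries, 317 of them with reads, held 0.672% of the family's reads.

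The balance of reads between the 7SL copies differed between days. RN7SL2 had 0.742, 0.766 and 0.677 reads for each RN7SL1 read on day 30, against 0.491, 0.484 and 0.496 on day 0. The ratio was 1.48-fold higher on day 30 with no overlap (difference in mean log2 ratio 0.57, 2-sided exact permutation p = 0.1, the smallest possible; adjusted 0.12). RN7SL3, a further copy on chromosome 14 (49853616 to 49853914, minus strand) and not among the 9, went the other way. It had 4013, 2921 and 1781 CPM on day 30, against 4781, 5243 and 5015 CPM on day 0 (log2 fold change −0.79 ± 0.23, edgeR adjusted p = 0.0103). The ratio of RN7SL3 to RN7SL1, chosen after its values were seen, was 0.1001, 0.0939 and 0.0677 on day 30, against 0.127, 0.124 and 0.138 on day 0 (2-sided exact permutation p = 0.1; adjusted 0.12). Without day 30 replicate 3 the log2 fold change of RN7SL3 was −0.51.

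**Figure D3:**
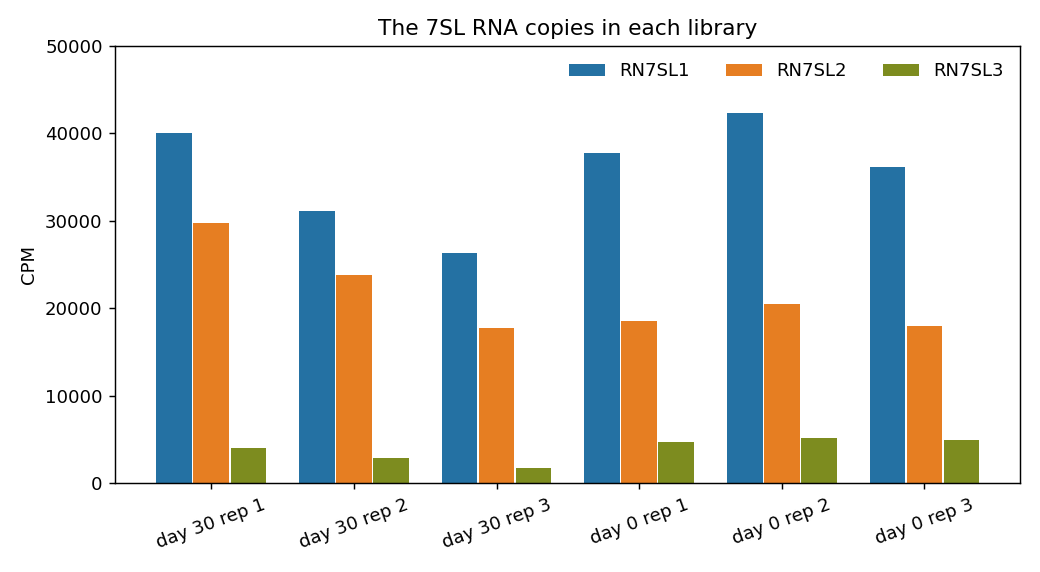
Level of RN7SL1, RN7SL2 and RN7SL3 in CPM in each library, as bars from 0. RN7SL1 is the tallest bar in every library, RN7SL2 comes closer to it in the 3 day 30 libraries (ratios of 0.677 to 0.766) than in the day 0 libraries (0.484 to 0.496), and RN7SL3 is shorter on day 30.

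The reads that tell the copies apart come from few positions. Over the bases compared from the 5′ end, RN7SL1 and RN7SL2 differ at 4 positions (98.7% identity) and RN7SL1 and RN7SL3 at 7 (97.7%). The longest stretch that RN7SL1 and RN7SL2 share without a difference is 205 bases. A read that covers no differing position fits several copies equally. The RN7SL1 and RN7SL2 values held fractions of reads in all 6 libraries, so the division between copies is uncertain, and the sources used here do not give how the deposited counts divided such reads. RN7SL2 also lies within a lincRNA entry, ENSG00000282885, whose values differed from those of RN7SL2 by less than 0.01% in every library. Whether reads were counted under both entries or divided between them is not given. The size of the RN7SL2 to RN7SL1 ratio on either day depends on this, as does that of RN7SK to 7SL.

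Relative to 7SL, 7SK RNA was higher in every day 30 library than in any day 0 library. The reads of RN7SK for each read of RN7SL1 and RN7SL2 together were 0.195, 0.207 and 0.277 on day 30, against 0.0875, 0.0981 and 0.103 on day 0, a 2.33-fold higher ratio (2-sided exact permutation p = 0.1, the smallest possible; adjusted 0.12). Day 30 replicate 3 had the highest ratio and the lowest 7SL level.

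**Figure D4:**
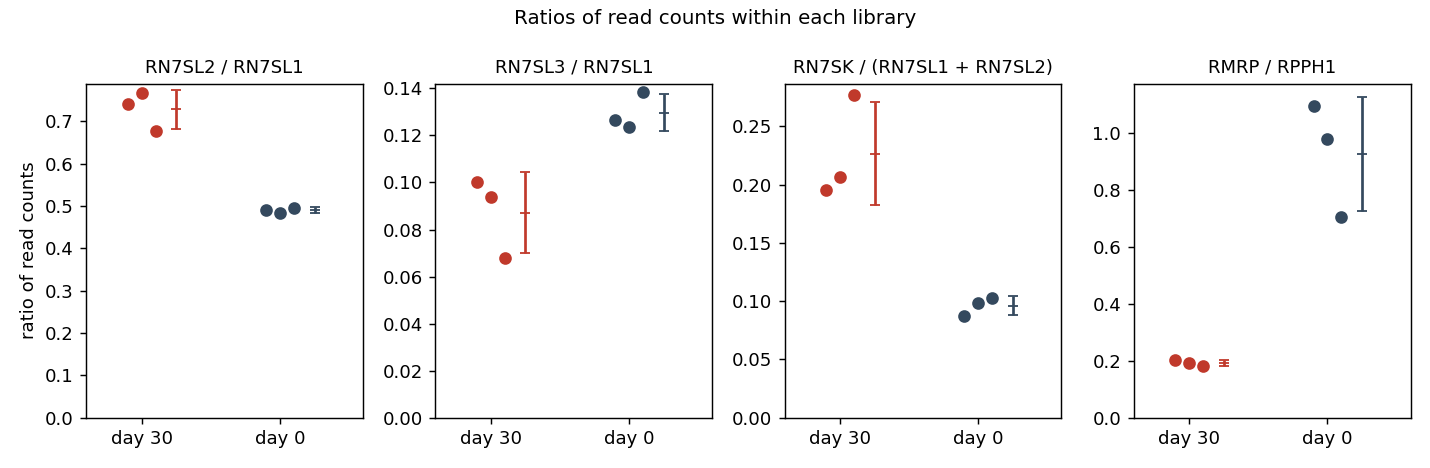
Ratios of read counts within each library, with a point for each library and the mean with its SD (n = 3) beside them; all axes start at 0. The RN7SL2 to RN7SL1 and RN7SK to 7SL ratios are higher on day 30 and the RN7SL3 to RN7SL1 and RMRP to RPPH1 ratios are lower, with no overlap between days.

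Among all genes tested 39.8% rose and 36.8% fell. Of 8 tested genes for SRP proteins and the SRP receptor, 2 rose and 3 fell (median log2 fold change −0.24). The genes that rose encode the receptor, and SRP9, SRP68 and SRP72, which fell, encode proteins of the particle. Without day 0 replicate 3, or without day 30 replicate 2, 1 rose and 2 fell. SRP9, which with SRP14 binds the Alu end of 7SL, was at 152 ± 38.4 CPM on day 30, against 293 ± 24.3 CPM on day 0 (SD, n = 3), a log2 fold change of −0.94 ± 0.17 (edgeR adjusted p = 0.000385). Its partner SRP14 had −0.28 and did not pass (edgeR adjusted p = 0.119), except without day 0 replicate 1 (−0.43, adjusted p = 0.0308). SRP68 fell by 0.58 on the log2 scale, and SRP54, the GTPase that binds the signal peptide, had 0.18 and did not pass (edgeR adjusted p = 0.181), though it did with total counts only (0.27, adjusted p = 0.0377). Of the receptor genes, SRPRB was at 55.7 ± 1.37 CPM on day 30, against 41.1 ± 2.79 CPM on day 0, and it passed in every alternative run for it. SRPRA had 0.28 (edgeR adjusted p = 0.0414), and its call was lost with DESeq2 and when any 1 library except day 30 replicate 3 was left out. In the translocon list, the channel that SRP delivers to, 3 of 7 tested genes rose and 3 fell, beside the same 39.8% and 36.8%. SEC61A2, a paralog of the channel subunit SEC61A1, had the largest rise (62.2 ± 1.26 CPM on day 30, against 15.7 ± 3.20 CPM on day 0, log2 fold change 1.98 ± 0.15), and TRAM1, which helps nascent chains insert, the largest fall at −1.24.

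Y RNAs were barely recovered. RNY1 (ENSG00000201098.1, chromosome 7, 148987136 to 148987248, minus strand) had 20, 21 and 3 reads on day 30 and 32, 32 and 54 reads on day 0. As CPM these were 2.05, 1.58 and 0.564 on day 30, against 4.06, 4.63 and 6.61 on day 0, with no overlap, and the log2 fold change was −1.76 ± 0.38 (edgeR adjusted p = 0.00158). The lowest value came from day 30 replicate 3, the library with the high mesenchymal sum and the fewest counts. Without that library the log2 fold change was −1.48 (edgeR adjusted p = 0.0031). With the 16 pseudogene entries of RNY1 added, which held 32.2% of the family's reads, the family had 35, 57 and 16 reads on day 30, against 40, 34 and 57 on day 0. The log2 value was then −0.61 ± 0.26 and did not pass (edgeR adjusted p = 0.0542).

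RNY3 (chromosome 7, 148983755 to 148983856, plus strand) had 1, 2 and 0 reads on day 30 and none on day 0. RNY4 (chromosome 7, 148963315 to 148963410, plus strand) had 0, 1 and 0 reads on day 30 and 0, 2 and 0 on day 0. With at most 3 reads over a group, a difference was not detectable at this depth, and neither gene was tested. For both names the pseudogene entries held more reads than the gene itself, 97.6% of the RNY3 family and 96.7% of the RNY4 family. Summed by family, RNY3 had a log2 value of 0.49 ± 0.35 (edgeR adjusted p = 0.218) and RNY4 of −0.16 ± 0.36 (adjusted p = 0.702). A further 756 entries carry only the name Y_RNA, of which 243 had reads, with 501.5, 780.5 and 342.5 reads on day 30 and 444.5, 356 and 390 on day 0. RNY5 was not analysed here.

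Of 10 tested genes for proteins that bind Y RNAs or the polymerase III transcript end, 9 fell and none rose, where 36.8% of all genes tested fell. The list's median log2 fold change was −1.64. PUF60, a splicing factor, had −0.30 and did not pass (edgeR adjusted p = 0.382). RO60 itself averaged 137 ± 13.6 CPM on day 30, against 204 ± 24.8 CPM on day 0 (SD, n = 3), a log2 fold change of −0.57 ± 0.13 (edgeR adjusted p = 0.00168). SSB, the La protein that protects the 3′ ends of new polymerase III transcripts, was at 72.7 ± 11.3 CPM on day 30, against 233 ± 22.1 CPM on day 0 (log2 fold change −1.68 ± 0.14, edgeR adjusted p = 9.97e-07). YBX3, a cold-shock domain protein, had the largest fall of the list at −4.54 ± 0.34. Several genes of the list, NCL and PTBP1 among them, have other main roles.

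Vault RNAs were scarce as well. VTRNA1-1 (ENSG00000199990.1, chromosome 5, 140711275 to 140711373, plus strand) had 2, 6 and 3 reads on day 30 and none in any day 0 library. Set against a floor of 3 counts over the day 0 group, its 11 day 30 reads stood 3.15-fold above that floor by total counts. The floor covers counting error of the day 0 group only. The error of the 11 reads is left out, so 3.15 is not a lower bound. It had too few reads for the main test. Its neighbour VTRNA1-3 (chromosome 5, 140726158 to 140726246, plus strand), another vault RNA, had 94, 164 and 52 reads on day 30 and 40, 23 and 33 on day 0. As CPM these were 9.63, 12.3 and 9.77 on day 30, against 5.08, 3.33 and 4.04 on day 0, a log2 fold change of 1.35 ± 0.23 (edgeR adjusted p = 0.000327). VTRNA1-2 had no reads, and VTRNA2-1 had 0.5 of a read in a day 0 library. The ratio of VTRNA1-3 to RNY1 reads was 4.70, 7.81 and 17.3 on day 30, against 1.25, 0.719 and 0.611 on day 0. The pair was chosen after its levels were seen to separate the days in opposite directions. Its 2-sided exact permutation p (0.1, and 0.12 adjusted) was therefore fixed in advance and is no support.

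The vault RNA pair is shown because both are alike over most of their length. Capitals mark the first 29 bases, which are identical, and the longest identical run after them, 34 bases, so a read that stays within capitals fits both.
VTRNA1-1: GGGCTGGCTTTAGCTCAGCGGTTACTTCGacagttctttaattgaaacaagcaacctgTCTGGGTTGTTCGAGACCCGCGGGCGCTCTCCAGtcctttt
VTRNA1-3: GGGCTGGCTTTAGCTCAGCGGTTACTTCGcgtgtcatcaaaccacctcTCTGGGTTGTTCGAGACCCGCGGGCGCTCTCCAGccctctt

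Of the 3 vault protein genes, 2 fell and the third did not pass, where 36.8% of all genes tested fell. PARP4, the vault ADP-ribosyltransferase, was at 13.6 ± 5.03 CPM on day 30, against 94.9 ± 11.4 CPM on day 0 (SD, n = 3), a log2 fold change of −2.83 ± 0.24 (edgeR adjusted p = 1.31e-06). TEP1, which binds vault RNA, fell by 0.61 on the log2 scale. MVP, the major vault protein that forms the shell, was at 7.47 ± 4.66 CPM on day 30, against 4.71 ± 0.894 CPM on day 0 and did not pass (edgeR adjusted p = 0.208), with a log2 value of 0.60. MVP was highest in day 30 replicate 3, at 12.5 CPM, against 3.28 and 6.64 CPM in the other day 30 libraries. The log2 value was 0.12 (edgeR adjusted p = 0.764) without that library and 0.95 (adjusted p = 0.0197) without day 30 replicate 1. NSUN2, the methyltransferase that modifies vault RNA, and SRSF2, a splicing factor that binds it, both fell, by 1.47 and 2.07 on the log2 scale.

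Factors of the upstream polymerase III promoters that drive 7SK, RPPH1, RMRP and Y RNA genes were tested as a last list. Of 9 tested genes 1 rose and 4 fell (median −0.56), where 39.8% of all genes tested rose and 36.8% fell. SNAPC1, a subunit of the complex that binds the proximal promoter element, was at 6.31 ± 0.908 CPM on day 30, against 18.6 ± 1.70 CPM on day 0 (log2 fold change −1.54 ± 0.18, edgeR adjusted p = 1.68e-05). Its partner subunit SNAPC3 averaged 85.6 ± 7.15 CPM on day 30, against 48.7 ± 5.52 CPM on day 0 (0.81 ± 0.12, edgeR adjusted p = 0.000122). The TFIIIB subunit BRF2, which serves these promoters, had 0.10 ± 0.16 and did not pass (edgeR adjusted p = 0.571), and BDP1 was listed at 0 in every library. Whether that 0 reflects the gene or its entry was not tested.

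**Figure D5:**
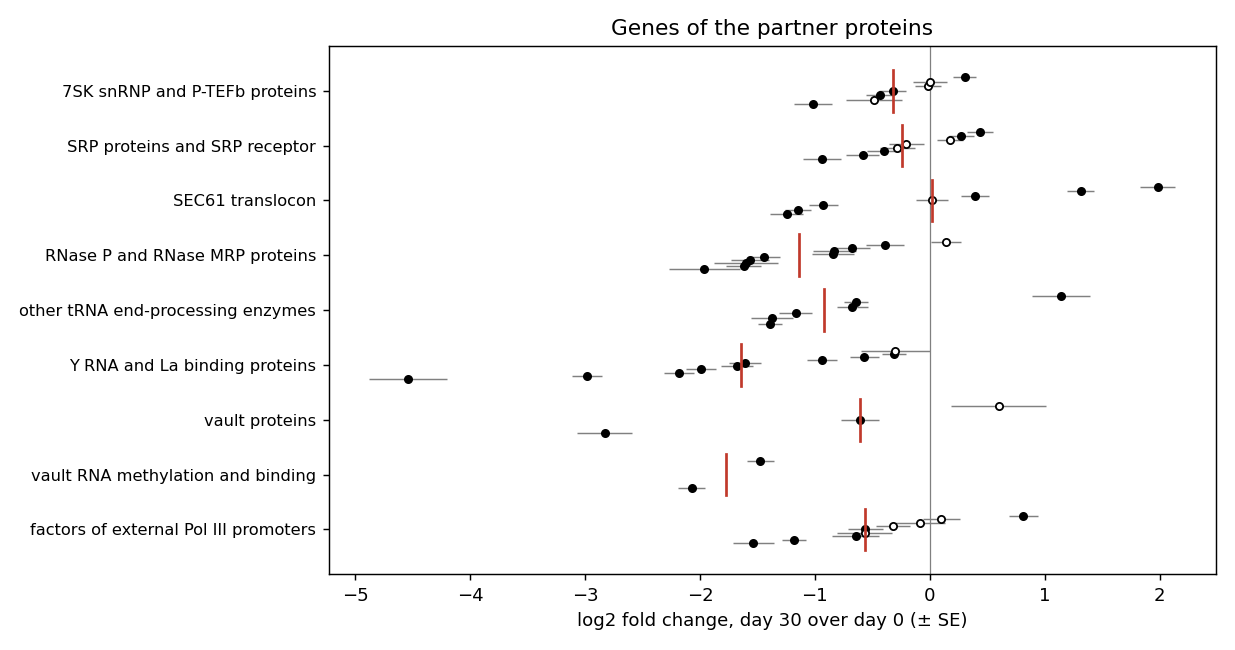
Log2 fold change of day 30 over day 0 with its standard error for each tested gene of the 9 partner lists, with the list median as a red line. Filled points passed an adjusted p of 0.05. In the list of RNase P and RNase MRP proteins 9 of 10 points lie below 0 and passed, and the SRP, translocon and 7SK lists hold points on both sides.

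The share of all reads held by the 9 members overlapped between days. They held 9.01%, 7.44% and 6.68% of counts on day 30, against 6.92%, 7.29% and 6.08% on day 0, a difference of 0.95 percentage points (2-sided exact permutation p = 0.4; adjusted 0.4). The difference was 0.298 percentage points without day 30 replicate 1, 0.608 without day 0 replicate 3 and 1.47 without day 30 replicate 3. With the second entries of RN7SK, RN7SL2, RPPH1 and RMRP added, the share was 12.1% ± 1.74 on day 30, against 9.76% ± 0.876 on day 0 (SD, n = 3). With those entries taken out of the total it was 8.07% ± 1.29 on day 30 and 6.97% ± 0.657 on day 0.

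Genes with the pattern most like each tested member were found by Pearson's r of log2 CPM over the 6 libraries, among genes with a mean log2 CPM of at least 5 and leaving out the entries that hold the same reads. They were SFT2D2 for RN7SK (r = 0.998), ZNF462 for RN7SL1 (0.988), ZNF48 for RN7SL2 (0.985), NAGK for RPPH1 (0.999), BCOR for RMRP (0.995) and PSME3IP1 for RNY1 (0.998). The points share their library, day and depth, and each gene was the closest of at least 5711.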

How the data were processed

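Per the labels' protocols, RNA was extracted with TRIzol, ribosomal RNA was removed, and stranded TruSeq libraries were read on a NovaSeq. The submitters' processing notes name FastQC 0.11.9 and hg38. Which aligner, counter and strand setting the authors used is not given in the sources. The values the authors deposited per gene were taken to be expected counts, since 92.6% of all values and 83.7% of those above 0 are whole and the rest hold fractions. How the fractions arose is not given in the sources. Values were rounded for the tests. Columns not used numbered 0.

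Day 30 and day 0 were compared in R 4.3.3 with edgeR 4.0.16 (quasi-likelihood, TMM, filterByExpr, 2-sided), which tested 18040 genes. The fit was also run on simulated counts with a common dispersion and few changed genes. It recovered 82% of 2-fold rises and 78.6% of falls to 0.5-fold. In the data 76.6% of genes passed, so the simulation does not test how TMM scaling holds here. CPM uses TMM-scaled library sizes. The standard error is the log2 fold change over the square root of F, and approximate intervals use 4 degrees of freedom. Ratios were compared by exact permutation. Of the 6 measures so tested, the ratios RN7SL3 to RN7SL1 and VTRNA1-3 to RNY1 were chosen after their values were seen. Counting them lowered the adjusted p of the other ratios. Alternatives were DESeq2 1.42.0, other scalings, filters, families summed, a replicate block and each library left out. Positions and sequences are from GENCODE 29 on the same build, which held 94.3% of entries.

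The members and lists were chosen with earlier results of these data known. All members, a fixed set of partners, and the largest passing rise and fall of each list were named, others after their values were seen. The floor covers counting error of the group without reads only. Sequences of some members are not reported here. Depth was 5013643 to 12924842 counts.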

Additional observations from a re-analysis of the deposited data

How the results depend on the processing

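RN7SK, RPPH1 and RMRP kept their direction and their call in all 16 alternatives each, with log2 ranges of 1.04 to 1.25, 0.59 to 0.73 and −1.80 to −1.54. The number of genes called ranged from 10258 to 16839, against 13827. RN7SL2 passed with total counts only (0.41) and with no filter on low counts (0.33), and reversed to −0.088 with the family summed, where copies are added together by construction. With each library left out it ranged from 0.12 to 0.52, and RN7SL1 from −0.45 to −0.10. RNY1 had −0.61 with its family summed and did not pass. The count of SRP genes called ranged from 3 to 5 with each library left out. HEXIM1 turned to −0.014 with DESeq2 and ranged from −0.12 to 0.094 with each library left out. CDK9 turned to 0.075 with total counts only and ranged from −0.061 to 0.031. The cause of these turns was not tested. With no filter, VTRNA1-1 passed (adjusted p = 0.0157), and RNY3 (0.277) and RNY4 (0.643) did not. That fit gave RN7SK an edgeR adjusted p of 1.3e-17 at a log2 value of 1.15, against 1.5e-05 in the main fit. The VTRNA1-1 and RN7SL2 passes there are therefore not comparable with the main calls. The ratio of RNY1 to RNY3 was not run, as RNY3 had libraries with 0 reads. Removing entries that repeat a member's values was chosen after seeing the data and changed no member's call. Deviations of same-numbered libraries correlated at 0.07, −0.0040 and −0.05, against −0.134 to 0.137 for libraries with different numbers. This cannot tell whether same-numbered libraries shared an origin, which the labels do not give. With the replicate block the log2 values were 1.16 for RN7SK, 0.64 for RPPH1, −1.61 for RMRP, −1.77 for RNY1, −0.27 for RN7SL1 and 0.29 for RN7SL2, 13336 genes were called, no member's call changed, and among the named partner genes run with it CCNT1 no longer passed (−0.31, adjusted p = 0.0588). RNY3, RNY4 and VTRNA1-1 had at most 6 reads in a library, and the part of depth in this was not tested.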

Other observations

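Pseudogene entries of these families that held the most reads had their own values. RN7SL5P held 426, 784 and 248 reads on day 30, against 378, 3773 and 3139 on day 0, so the day 0 libraries differed among themselves. RN7SKP203 held 158, 165 and 54.8 reads on day 30, against 30.2, 73 and 68 on day 0. RNY1P9 held 2, 17 and 3 reads on day 30, against 1, 0 and 0 on day 0. RNY3P15 held 21, 22 and 7.5 reads on day 30, against 16.5, 5.5 and 12 on day 0. RNY4P7 held 2, 7 and 3 reads on day 30, against 6, 1 and 3 on day 0. None was tested here, and reads of the parent RNA can be divided among such entries.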
